A study of Mus musculus with 11 samples.

Results

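The family of miR-130 and miR-301 was followed through 11 small RNA libraries from mouse embryonic stem (mES) cells with and without Trim71. Its members are the miRNAs of the hairpins miR-130a, miR-130b, miR-301a and miR-301b. They were chosen by name, and both arms of each hairpin were listed, so that the family makes up 8 of the 592 miRNAs in the table. The comparison asks whether the level of these miRNAs, or the balance between the arms of a hairpin, differs in mES cells once Trim71 is deleted.

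The male C57BL/6 mES cells carry loxP sites around the last exon of Trim71, which encodes an RNA-binding ubiquitin ligase of stem cells, and a CreERT2 recombinase in the Rosa26 locus that 4-hydroxytamoxifen (4-OHT) switches on. According to the labels, Trim-/- cells were exposed over 2 days to 4-OHT at 500 nM and were kept in culture for at least 7 days more. The methods of the study give another dose and a shorter culture, and DMSO as the solvent for the Trimfl/fl controls, which hold the same floxed alleles and the same recombinase. All cells were sorted magnetically for SSEA-1, a surface antigen of undifferentiated cells, and the purity reached was not analysed here. The 5 Trim-/- and 6 Trimfl/fl libraries come from 2 clones. Clone 1 has a library of each genotype on days 1, 5 and 6, and clone E3 has one of each on days 3 and 4 and an additional Trimfl/fl library on day 2. Trim71 mRNA is not among the measured RNAs, so that its deletion was not checked in these libraries.

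A miRNA hairpin is cut into a duplex of a 5p and a 3p arm, and one arm is usually kept by Argonaute while its partner is degraded. The bases 2 to 8 of the mature miRNA, its seed, pair with target mRNAs, so that miRNAs with a common seed are counted as a family. The family of miR-130 and miR-301 is known for promoting proliferation and migration in several tissues and for acting in vascular cells, and its 3p arms share part of their seed with the miRNAs that dominate mES cells.

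The mature sequences are shown because they define the family and because the arms of the hairpins turned out to be present at very different levels. They are from RefSeq for GRCm38.p6 and are written 5′ to 3′ with the seed in capitals. Of the 8 members, 7 were matched by name, and miR-301b-3p is named only. The 3p arms printed here share the seed AGUGCAA, and their first 9 bases are identical.
miR-130a-3p: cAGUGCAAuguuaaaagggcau
miR-130b-3p: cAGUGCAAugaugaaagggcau
miR-301a-3p: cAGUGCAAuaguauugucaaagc
From miR-130a-3p to miR-130b-3p there are 2 substitutions, U11A and A13G, with positions counted from 1 at the 5′ end, whereas miR-301a-3p has another 3′ part. The 5p arms fall into 3 seeds. Those of miR-301a and miR-301b share CUCUGAC, and those of miR-130a and miR-130b have one each.
miR-130a-5p: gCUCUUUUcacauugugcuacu
miR-130b-5p: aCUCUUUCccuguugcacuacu
miR-301a-5p: gCUCUGACuuuauugcacuacu
miR-301b-5p: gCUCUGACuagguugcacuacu
The 5p arms of miR-130b, miR-301a and miR-301b hold UUGCACU from position 13, the reverse complement of the 3p seed, and miR-130a-5p does not. Between miR-301a-5p and miR-301b-5p the substitutions are U10A, U11G and A12G. Of the 592 miRNAs, 463 had a mature sequence in the same collection, and 0 miRNAs outside the family had any of these 4 seeds.

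The 4 hairpins lie at 3 places of GRCm38. Mir130a is at chr2:84741115-84741178 on the minus strand and overlaps no other annotated gene. Mir301, the gene of miR-301a, is at chr11:87113004-87113089 on the plus strand, in an intron of Ska2, which encodes a protein of the spindle and kinetochore. Mir130b at chr16:17124061-17124142 and Mir301b at chr16:17124400-17124496 form a cluster on the minus strand, with 257 bases between them, in an intron of 2610318N02Rik on the same strand.

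The values are read counts per miRNA, normalized with DESeq2, corrected for batch and raised to at least 1 by the authors, and the number of reads behind them is unknown. Summed over the table they reach 3751519 to 5551715 in the Trim-/- libraries and 2742673 to 4332525 in the 5 Trimfl/fl libraries with a same-day partner, with the larger sum in the Trim-/- library of 4 of the 5 pairs. For all 8 members, which have no value at this floor, and for 591 of the 592 miRNAs when pairs with a value at the floor (found in 106 miRNAs) are set aside, the values of the Trim-/- and the Trimfl/fl library of a day have a sum that does not vary between the days by more than 0.1%. A value above the mean in one library is therefore below it by as much in the partner. For the members a pair contributes only 1 difference, the SDs of both genotypes are equal, a level that differs between clones or days is no longer visible, and a high value in one genotype cannot be told apart from a low value in the other. The day 2 library equals the mean of the other 5 Trimfl/fl libraries, taken before the floor, to within 0.1% in all 592 miRNAs. It holds no measurement of its own and was left out, except in alternatives named below, so that n = 5 elsewhere. As these are bulk libraries, fewer cells of a kind and less RNA per cell cannot be told apart either.

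The 14 markers of mES cells found in the table, from the miR-290 to miR-295 cluster and that of miR-302 and miR-367, summed to 1913190 to 2725480 in Trim-/- and 1473960 to 2281810 in Trimfl/fl libraries, and 0 of them were called between genotypes. A call is a fold change over 1.5 with an unadjusted p under 0.05 in limma, reached by 5.41% of all 592 miRNAs. The sum of the mES cell markers was higher in Trim-/- in 4 of the 5 pairs. Their fitted mean in Trim-/- was higher for 6 and lower for 8, or higher for 3 and lower for 11 after division by library totals. Among the 8 were miR-302a-3p, miR-302b-3p, miR-302c-3p, miR-302d-3p and miR-367-3p, with log2 fold changes of -0.66 to -0.28. Markers of fibroblasts (7 of 9 in the table) summed to 13527 to 35461 in Trim-/- and 13316 to 35270.0 in Trimfl/fl libraries, with 0 called. Those of neural cells (4 of 5) summed to 5577 to 8969 and 3216 to 6608, with 0 called, and the median of their log2 differences was 0.20 to 0.61 over the 5 days, with a higher fitted mean in Trim-/- for all 4, or for 3 after division by library totals. Those of endothelial and blood cells (5 of 5) summed to 5808 to 7753 in Trim-/- and 6608 to 8596 in Trimfl/fl libraries, with 1 called. The fitted mean in Trim-/- was lower for 4 of them, or for all 5 after division by library totals, their median log2 fold change was -0.96, and the median of their log2 differences was -1.03 to -0.09 over the 5 days. The endothelial miR-126a-3p was 5553 ± 607 (SD, n = 5) in Trim-/- and 5164 ± 607 in Trimfl/fl cells, miR-126a-5p was 78.8 ± 10.9 and 94.9 ± 10.9, and miR-451a, of red blood cells, was at 7.04 ± 3.69 and 12.8 ± 3.94.

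The family ranged over more than 2 orders of magnitude in Trimfl/fl mES cells, from 42.7 ± 15.9 (SD, n = 5) for miR-301b-3p to 4544 ± 1254 for miR-130a-3p. miR-130a-3p ranked 64th of the 592 miRNAs. It was followed by miR-130b-5p with 1273 ± 317 (rank 126), miR-130b-3p with 827 ± 162 (rank 149), miR-301a-5p with 365 ± 75.9 (rank 211), miR-301b-5p with 270.4 ± 126 (rank 231), miR-130a-5p with 126 ± 20.3 (rank 304) and miR-301a-3p with 89.4 ± 26.8 (rank 344). The printed mature forms have 22 or 23 bases, and the levels were compared without scaling to length.

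Not every step of this order was clear of the spread. That spread holds only the same-day differences between genotypes, because the values of a pair add up to a constant. miR-130a-3p was 3.57 times as high as miR-130b-5p in the ratio of the means, and the Trimfl/fl ranges of both did not overlap. miR-130b-3p was 2.27 times as high as miR-301a-5p, again without overlap. The other neighbours overlapped, among them miR-130b-5p and miR-130b-3p, with a ratio of 1.54 and the first higher in 4 of 5 Trimfl/fl libraries. Within the 3p arms, miR-130a-3p made up 82.6% of the summed level in Trimfl/fl cells, and within the 5p arms miR-130b-5p made up 62.6%. All 8 members together held 0.140% to 0.317% of the summed values of a Trimfl/fl library and 0.0995% to 0.209% of a Trim-/- library.

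The hairpins differed in the arm that was more abundant. In miR-130a the 3p arm was 36.1 times as high as the 5p arm in the ratio of the Trimfl/fl means, whereas in the other hairpins the 5p arm was higher, by 1.54 times in miR-130b, 4.08 times in miR-301a and 6.34 times in miR-301b. Expressed as the share of the 5p arm in both arms, this was 2.96% ± 1.301 (SD, n = 5) for miR-130a, 60.3% ± 7.55 for miR-130b, 80.3% ± 3.98 for miR-301a and 84.1% ± 8.32 for miR-301b. In miR-130b and miR-301a the arm with the seed AGUGCAA was thus the less abundant one in the table, and in miR-301b it was the 3p arm as well. Over the 179 hairpins with both arms listed, 93 (52.0%) had a 5p share above 50% and the median share was 58.8%. miR-130a lies near the lower end of this distribution, with 23 hairpins below it, and miR-301b has 58 above it.

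**Figure D1:**
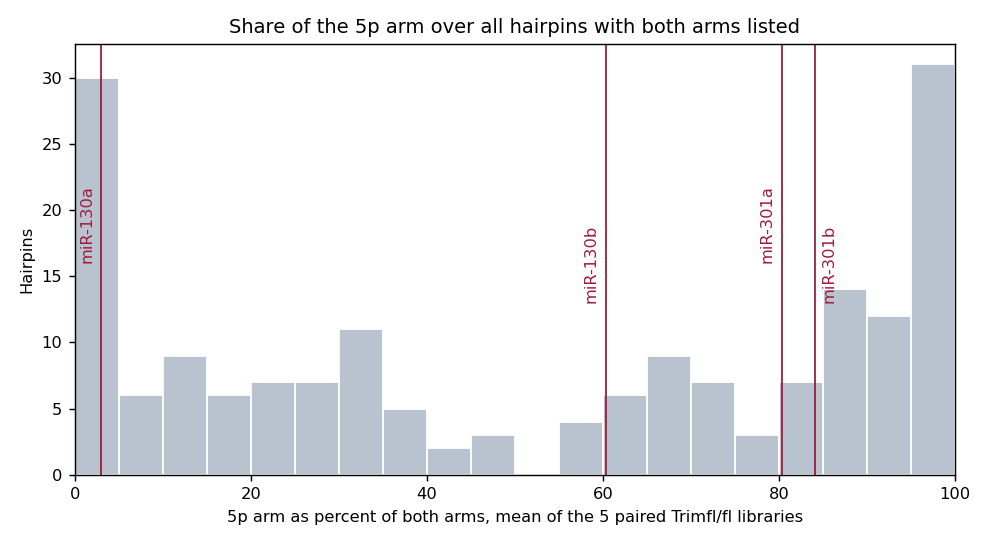
Histogram of the 5p share of 179 hairpins with both arms in the table, as percent of the summed values of both arms (x axis, mean of the 5 paired Trimfl/fl libraries) against the number of hairpins (y axis). Vertical lines mark the family: miR-130a at 2.96%, miR-130b at 60.3%, miR-301a at 80.3% and miR-301b at 84.1%.

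In the comparison of genotypes the most abundant member, miR-130a-3p, had a level of 2712, 5135, 4062, 1860 and 3372 in the Trim-/- libraries of days 1, 3, 4, 5 and 6, and of 5261, 2837, 3910, 6112 and 4601 in their Trimfl/fl partners. The 3 Trim-/- libraries of clone 1 were below their partners and both of clone E3 above them, and the ranges of the genotypes overlapped. The log2 fold change, here and below on the scale of log2(value + 1) with Trim-/- relative to Trimfl/fl, was -0.44 with a standard error of 0.42 and a 95% interval of -1.46 to 0.58 (adjusted p = 0.680 from limma with the day as a block). With 1 pair left out it ranged from -0.77 (without day 3) to -0.12 (without day 5), and after division by library totals it was -0.71. Exchanging the genotypes within days in all 32 ways, an exact two-sided permutation test, gave p = 0.375, and with 5 pairs this test cannot go below 2 in 32, which is above 0.05.

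miR-130b-3p, the member closest to it in sequence, had a level of 598, 945, 601, 535 and 627 in the Trim-/- and of 889.9, 543, 887, 953 and 861 in the Trimfl/fl libraries of the same days. It was lower in the Trim-/- library on every day except day 3, when it was higher, so that the ranges overlapped. Its log2 fold change was -0.33 (standard error 0.32, 95% interval -1.11 to 0.46, adjusted p = 0.680). Without the pair of day 3 it was -0.61, without that of day 5 -0.20, and after division by library totals -0.59.

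The low 3p arms showed the largest fitted differences of the family. For miR-301a-3p the level was 13.4, 73.5, 74.5, 30.4 and 42.5 in Trim-/- and 123, 62.8, 61.8, 106 and 93.8 in Trimfl/fl libraries. The Trim-/- libraries of days 1, 5 and 6 lay below every Trimfl/fl library, while those of days 3 and 4 lay above their own partners. The log2 fold change was -1.10 (standard error 0.56, 95% interval -2.47 to 0.27), with an unadjusted p of 0.0969 and an adjusted p of 0.607 from limma. It ranged from -0.60 without the pair of day 1 to -1.44 without that of day 4. Without the replicate block the unadjusted p was 0.0366 in limma, a fit that treats the libraries of a pair as independent. For miR-301b-3p the level was 3.94, 27.1, 47.9, 19.9 and 21.9 in Trim-/- and 62.9, 39.7, 18.9, 46.9 and 44.9 in Trimfl/fl libraries, lower in Trim-/- on every day but day 4. Its log2 fold change was -1.02 (standard error 0.69, 95% interval -2.70 to 0.65, adjusted p = 0.645). Without the pair of day 1 it was -0.36, with an unadjusted p of 0.522 in limma, and without that of day 4 it was -1.61, with an unadjusted p of 0.0457 and an adjusted p of 0.385.

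Among the 5p arms, miR-130b-5p had the highest level, with 1799, 1877, 1242, 2086 and 1622 in Trim-/- and 1199.5, 1121, 1756, 912 and 1377 in Trimfl/fl libraries of days 1, 3, 4, 5 and 6. It was higher in the Trim-/- library on every day except day 4, with overlapping ranges. The log2 fold change was 0.45 (standard error 0.32, 95% interval -0.32 to 1.23, adjusted p = 0.645), of opposite sign to that of miR-130b-3p from the same hairpin. For miR-130b-5p it was 0.69 without the pair of day 4, 0.27 without that of day 5 and 0.18 after division by library totals.

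The level of miR-301a-5p was 313, 368, 509, 432 and 450.4 in Trim-/- and 466, 411, 269.7, 348 and 329 in Trimfl/fl libraries, higher in Trim-/- on 3 of 5 days. For miR-301b-5p it was 286, 305, 84.5, 429 and 334 in Trim-/- and 272, 253, 473, 129 and 224 in Trimfl/fl libraries. Here the pair of day 4 stood out, with 84.5 in Trim-/- against 473 in Trimfl/fl, while Trim-/- was higher on the other days, and without this pair the log2 fold change of miR-301b-5p was 0.66. The level of miR-130a-5p was 93.6, 79.0, 97.7, 132 and 113 in Trim-/- and 136, 150.1, 131, 96.8 and 116 in Trimfl/fl libraries, lower in Trim-/- on 4 of 5 days. The log2 fold changes were 0.19 (standard error 0.30, adjusted p = 0.779), 0.03 (0.60, adjusted p = 0.991) and -0.29 (0.29, adjusted p = 0.680), and the ranges of the genotypes overlapped for each. With 1 pair left out, miR-301a-5p ranged from 0.008 (without day 4) to 0.38 (without day 1). miR-130a-5p ranged from -0.48 (without day 5) to -0.14 (without day 3), and was -0.56 after division by library totals.

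**Figure D2:**
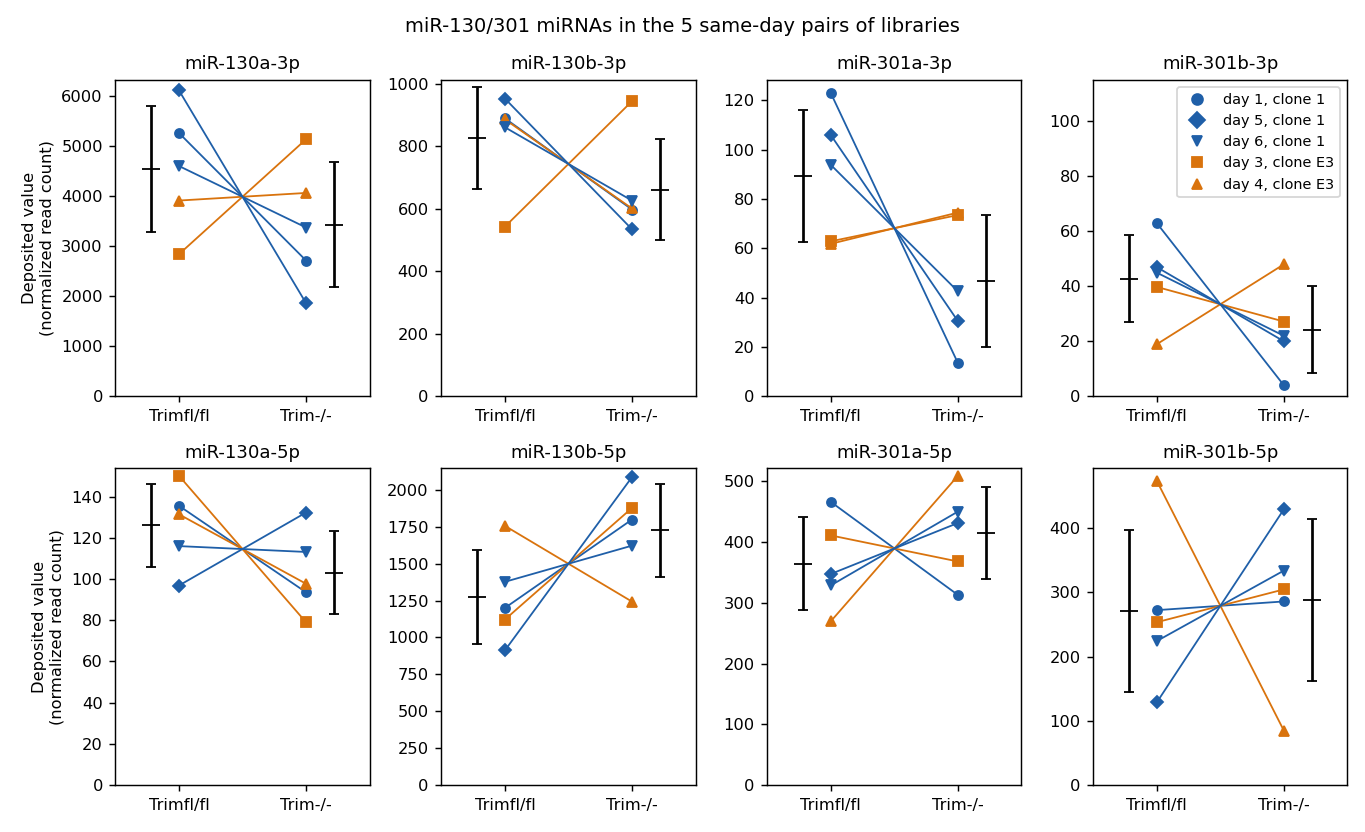
Level of each member (deposited normalized read count, linear y axes that start at 0 and differ between panels) in the Trimfl/fl and Trim-/- libraries, with a line joining the libraries of a day, blue for clone 1 and orange for clone E3, and the mean ± SD of 5 libraries at the sides. The lines of a panel cross at 1 height because the values of a pair add up to a constant, and the blue lines of all 4 3p arms (upper row) fall from Trimfl/fl to Trim-/-.

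Across the family, 0 of the 8 members passed a fold change over 1.5 with an unadjusted p under 0.05, the thresholds of the study, and 0 had an unadjusted p under 0.05 in limma. Of all 592 miRNAs, 32 passed (5.41%), of which 27 were lower in Trim-/- cells (4.56% of all) and 5 higher (0.845%). With an adjusted p under 0.05 there were 0 calls among the members and 0 among all miRNAs, and the smallest adjusted p of the table was 0.607. The groups of 0 members were free of overlap, against 68 (11.5%) of all miRNAs. The fitted mean was lower in Trim-/- cells for all 4 3p arms, their median log2 fold change being -0.73, and 3 of the 4 5p arms had a higher one, with a median of 0.11. For comparison, 48.8% of all miRNAs had a lower fitted mean and 51.2% a higher one, and the median log2 fold change of all was 0.03. The signs of miR-301a-5p and miR-301b-5p turned when libraries were divided by their totals, to -0.08 and -0.24, a scaling that moved the median of all miRNAs from 0.03 to -0.24. Summed over the 4 hairpins, the 3p arms reached 4160 ± 1425 (SD, n = 5) in Trim-/- and 5503 ± 1425 in Trimfl/fl cells, and the 5p arms 2531 ± 409 and 2034 ± 409. The same-day ratio of Trim-/- to Trimfl/fl went from 0.34 to 1.77 for the 3p arms and from 0.74 to 2.07 for the 5p arms. As a share of the summed values of a library, the 5p arms held 0.0516% to 0.0623% in Trim-/- and 0.0501% to 0.0607% in Trimfl/fl cells, and the 3p arms 0.0440% to 0.147% and 0.0901% to 0.263%, with overlapping ranges for both.

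**Figure D3:**
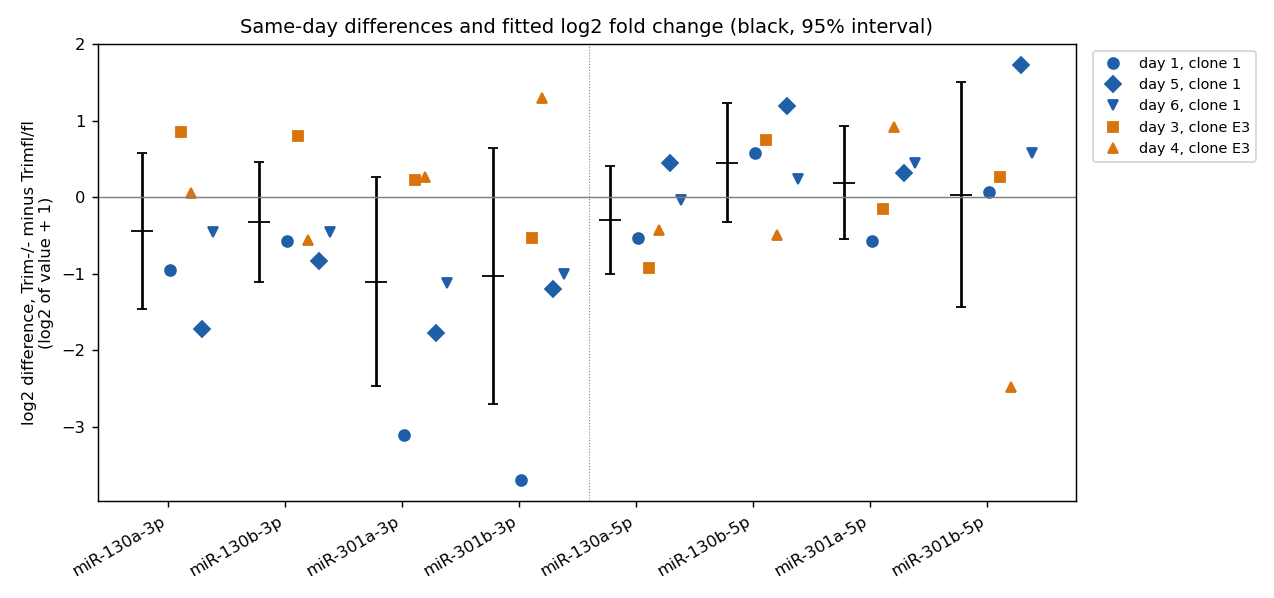
Difference between the same-day libraries of each member (y axis, log2(value + 1) in Trim-/- minus Trimfl/fl; one symbol per day, blue for clone 1 and orange for clone E3) and the fitted log2 fold change with its 95% interval from limma in black. All 8 intervals include 0, the blue symbols of the 3p arms lie below 0, and the widest spread is that of miR-301b-3p and miR-301b-5p.

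The pairs were also compared by clone. In clone 1 all 4 3p arms were lower in Trim-/- on days 1, 5 and 6, which held for 24.2% of all miRNAs, and miR-130b-5p and miR-301b-5p were higher on these 3 days, which held for 23.3%. The mean difference in clone 1 was -1.04 for miR-130a-3p, -0.62 for miR-130b-3p, -1.998 for miR-301a-3p and -1.96 for miR-301b-3p on the log2 scale. In clone E3, with only 2 pairs, it was 0.46, 0.12, 0.24 and 0.38. For miR-130b-3p and miR-301b-3p the pairs of clone E3 had opposite signs, with 0.80 on day 3 and -0.56 on day 4 for the first and -0.53 and 1.30 for the second. For miR-130a-3p and miR-301a-3p the pairs of clone 1 all went down and those of clone E3 both went up, a pattern seen in 24 (4.05%) of all miRNAs.

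The difference between the clones was tested with a genotype by clone term in limma, which was added after these values had been seen. For miR-301a-3p the change in clone E3 exceeded that in clone 1 by 2.24 (standard error 0.76, 95% interval 0.32 to 4.16), with an unadjusted p of 0.0296 and an adjusted p of 0.627. Over all miRNAs, 33 (5.57%) had an unadjusted p under 0.05 for this term and 1 (0.169%) an adjusted one. For miR-130a-3p the term was 1.495 (standard error 0.66, unadjusted p = 0.0690, adjusted p = 0.627), for miR-301b-3p 2.35 (standard error 1.11, unadjusted p = 0.0852) and for miR-301b-5p -1.90 (standard error 1.04, unadjusted p = 0.124). Since the days are nested in the clones, a clone and its days cannot be told apart.

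The balance of the arms was compared as the log2 ratio of the 3p to the 5p arm of a hairpin within each library. In miR-301a the 5p share was 95.9%, 83.4%, 87.2%, 93.4% and 91.4% in the Trim-/- libraries of days 1, 3, 4, 5 and 6 and 79.1%, 86.7%, 81.4%, 76.7% and 77.8% in the Trimfl/fl libraries. It was higher in Trim-/- on every day except day 3. The 3p to 5p ratio was lower by a log2 value of -1.29 (standard error 0.52, 95% interval -2.55 to -0.03), with an unadjusted p of 0.0459 from limma and an adjusted p of 0.835 over the 179 hairpins, and the exact permutation within days gave p = 0.125. Of these hairpins, 3 (1.68%) had an unadjusted p under 0.05 and 0 an adjusted one. The unadjusted p of miR-301a rose above 0.05 without the pair of day 1, 4, 5 or 6, to between 0.0537 and 0.131, with values of -1.45 to -0.98, and was 0.0196 without that of day 3, with a value of -1.71. In clone 1 alone the value was -2.06 (unadjusted p = 0.0129 in limma), and in clone E3 alone it was -0.13 (unadjusted p = 0.880).

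For miR-130b the 5p share was 75.1%, 66.5%, 67.4%, 79.6% and 72.1% in Trim-/- and 57.4%, 67.4%, 66.4%, 48.9% and 61.5% in Trimfl/fl libraries. The pairs of clone E3 were nearly level, while in the 3 pairs of clone 1 the share was higher in Trim-/-. The change of the log2 ratio was -0.78 (standard error 0.44, unadjusted p = 0.126 in limma). Without the replicate block the unadjusted p in limma was 0.0215 and the adjusted p 0.350. That fit treats the libraries of a pair as independent. Without the pair of day 5 the change was -0.46 (unadjusted p = 0.295). For miR-301b the share was 98.6%, 91.8%, 63.8%, 95.6% and 93.8% in Trim-/- and 81.2%, 86.5%, 96.2%, 73.3% and 83.3% in Trimfl/fl libraries, higher in Trim-/- on every day but day 4. Its log2 ratio changed by -1.06 (standard error 1.08, unadjusted p = 0.365), and by -2.26 (unadjusted p = 0.0115, adjusted p = 0.513) without the pair of day 4. It was -0.38 (unadjusted p = 0.755) without the pair of day 1 and -0.59 (unadjusted p = 0.654) without that of day 5. In clone 1 alone it was -2.75 (unadjusted p = 0.0105, adjusted p = 0.480 in limma), and in clone E3 alone 1.49 (unadjusted p = 0.161). For miR-130a, in which the 3p arm prevails, the 5p share was 1.51% to 6.64% in Trim-/- and 1.56% to 5.03% in Trimfl/fl libraries, and the log2 ratio changed by -0.15 (standard error 0.60, unadjusted p = 0.812).

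The 3p to 5p ratio was lower in Trim-/- in all 3 pairs of clone 1 for each of the 4 hairpins, against 18.4% of the 179 hairpins. The fitted change was below 0 for the 4 hairpins as well as for 52.5% of all. A clone term for the ratio, again added after the values had been seen, was 4.24 for miR-301b (unadjusted p = 0.0372, adjusted p = 0.574), 2.13 for miR-130a (unadjusted p = 0.0733), 1.93 for miR-301a (unadjusted p = 0.0574) and 1.29 for miR-130b (unadjusted p = 0.163), where 9 of the 179 hairpins (5.03%) had an unadjusted p under 0.05.

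**Figure D4:**
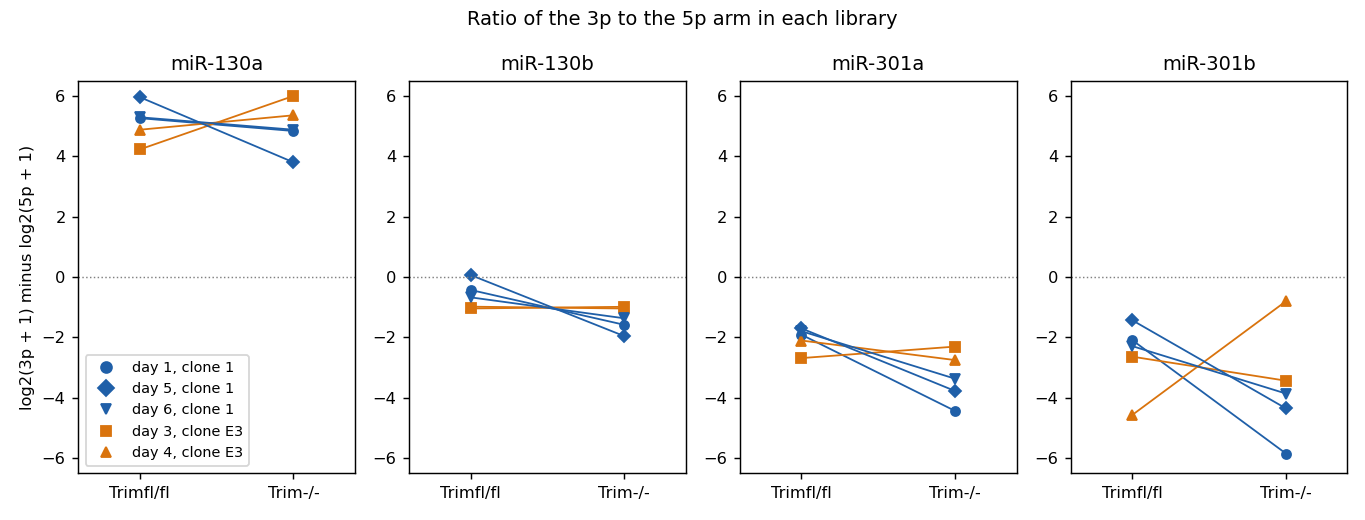
Ratio of the 3p to the 5p arm of each hairpin (y axis, log2(3p + 1) minus log2(5p + 1)) in the Trimfl/fl and Trim-/- libraries, with a line joining the libraries of a day, blue for clone 1 and orange for clone E3. miR-130a lies above 0 in every library and miR-301a and miR-301b below 0 in every library, and the blue lines fall in all 4 panels.

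To compare the members over the libraries, a distance between miRNAs was taken. It is the root mean square difference of log2(value + 1) over the 10 paired libraries, after the mean of each miRNA was subtracted. It was ranked among the 485 miRNAs compared, those without a value at the floor. Since the sum of a pair is constant, it describes 5 differences. The distance is not scaled to the size of the variation, so that miRNAs that vary little lie close even when their changes differ in direction. miR-130a-5p and miR-301a-5p, with fitted log2 fold changes of -0.29 and 0.19, were 0.36 apart. miR-130b-3p was 8th in the ranking of miR-130a-3p and miR-130a-3p 20th in that of miR-130b-3p, at a distance of 0.27, although the genes lie on chromosomes 16 and 2. miR-301a-3p and miR-301b-3p, on chromosomes 11 and 16, were 0.37 apart and ranked 7th and 5th for each other. In the chromosome 16 cluster, miR-130b-3p and miR-301b-3p were 0.95 apart. miR-130b-5p and miR-301b-5p were 0.52 apart, with miR-130b-5p ranked 51st for miR-301b-5p and nearest to it within the family, and miR-301b-5p ranked 222nd for miR-130b-5p. The arms of a hairpin were also distant, with 0.65 between those of miR-130a, 0.55 for miR-130b, 0.87 for miR-301a and 1.48 for miR-301b. How reads were shared between miRNAs with near-identical sequences was not tested.

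The miRNAs outside the family at the smallest distance from miR-130a-3p were miR-33-5p at 0.196, miR-669o-5p at 0.209 and miR-188-5p at 0.211. Their fitted log2 fold changes were -0.15, -0.30 and -0.47. For miR-130b-5p they were miR-290b-5p at 0.0925, miR-24-3p at 0.110 and miR-877-5p at 0.136, with 0.36, 0.46 and 0.32.

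**Figure D5:**
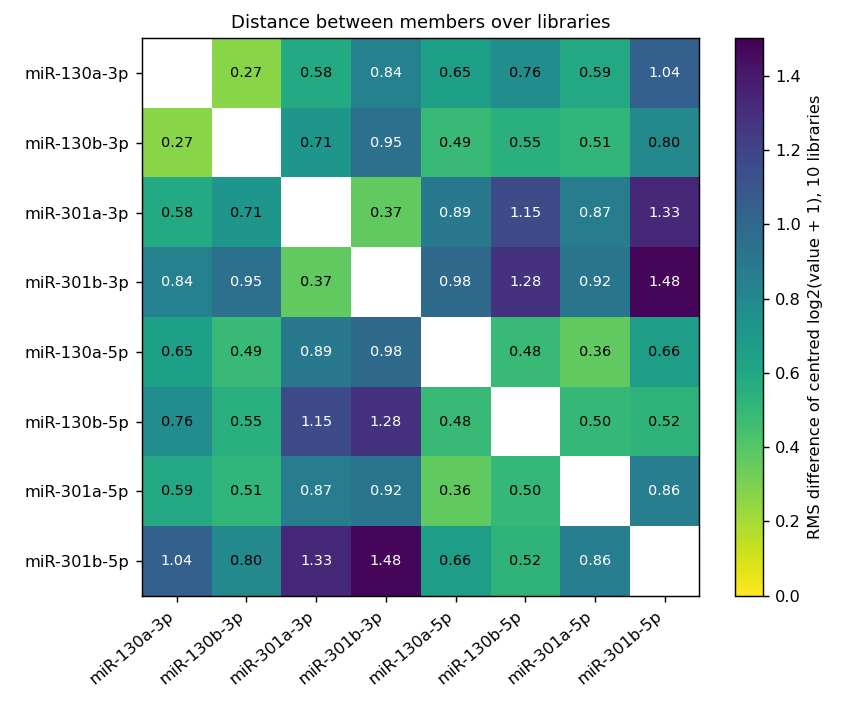
Distance between members (colour and number, root mean square difference of centred log2(value + 1) over the 10 paired libraries). Small values mean similar patterns or little variation in both members. The smallest distance among the 3p arms is 0.27 between miR-130a-3p and miR-130b-3p, the arms of miR-301b are 1.48 apart, and the 5p arms of miR-130a and miR-301a are 0.36 apart.

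The seed AGUGCAA overlaps with seeds of miRNAs that are abundant in mES cells, shifted or changed at its end. These related seeds were described as lists by name. Only listed miRNAs whose seed, read from the 463 matched sequences, was that of the list were counted. Left out of the AAGUGCU list were miR-302a-3p, without a matched sequence, and miR-302c-3p, with AGUGCUU. Both had a lower fitted mean in Trim-/- cells, with log2 fold changes of -0.64 and -0.54. Of the 5 with AAGUGCU (miR-291a-3p, miR-294-3p, miR-295-3p, miR-302b-3p and miR-302d-3p), known as cell cycle miRNAs of embryonic stem cells, the fitted mean in Trim-/- cells was higher for 2 and lower for 3 (median log2 fold change -0.12), or lower for all 5 after division by library totals. Their level in Trimfl/fl cells went from 6886 ± 1685 (SD, n = 5) for miR-302b-3p, near that of miR-130a-3p, to 416445 ± 63060 for miR-291a-3p. Of the 6 with AAAGUGC, from the miR-17-92 cluster and its paralogues, 1 was higher and 5 lower, with a median of -0.27, or all 6 lower after that division. Of the 3 with CAGUGCA (miR-148a-3p, miR-148b-3p and miR-152-3p), 2 were higher and 1 lower, with a median of 0.17, or 1 higher and 2 lower after that division. In these 3 lists limma called 0 miRNAs and 0 had an unadjusted p under 0.05, against 5.41% of all miRNAs.

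Among the marker lists, limma called 1 of the 5 markers of endothelial and blood cells and 1 of the 8 let-7 miRNAs, and 0 at an adjusted p under 0.05. miR-142-3p, a miRNA of blood cells, was 847 ± 381 (SD, n = 5) in Trim-/- and 1689 ± 381 in Trimfl/fl cells (log2 fold change -1.11, unadjusted p = 0.0469, adjusted p = 0.607). For miR-142-5p it was 273 ± 198 and 650.1 ± 213 (log2 fold change -2.48, standard error 1.38, unadjusted p = 0.121), with the Trim-/- library of day 1 at the floor of 1. The 8 let-7 miRNAs looked at as markers of differentiated cells summed to 33743 to 94488 in Trim-/- and 699.7 to 32435 in Trimfl/fl libraries. One of them, let-7e-5p, was called higher, and the median difference was 0.12 to 0.60 on days 1, 3, 4 and 5 and 11.03 on day 6, when the Trimfl/fl values of 6 of them were at the floor of 1. The part of these miRNAs, and of the neural markers, in the differences of the family was not tested.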

How the data were processed

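Small RNA of Trim-/- and Trimfl/fl mES cells was sequenced on a HiSeq instrument after library preparation with the NEBNext kit. According to the paper, FLICKR trimmed the reads, Bowtie2 aligned them to mm10 with miRBase as the source, and Partek counted them per transcript. The submitters' processing notes name CASAVA 1.8, Bowtie2 2.2.1, Partek 6.6, DESeq2 and mm10. The deposited signal is a normalized read count per miRNA. To make it, the authors ran the default normalization of DESeq2 on counts, applied a batch correction, raised what was below 1 to 1 and kept miRNAs with a mean of at least 10 in either genotype. No raw counts were used here, the depth is unknown, and the precision comes from 5 pairs.

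The 10 libraries of the 5 same-day pairs were compared with limma 3.58.1 in R 4.3.3 on log2(value + 1), with terms for genotype and day, over 592 miRNAs, and on the log2 ratio of the arms over 179 hairpins. The adjustment of p-values was that of Benjamini and Hochberg. The labels give the pairing, since a day number is shared by 1 library of each genotype from the same clone. After subtraction of group means, libraries of a day correlated at -0.653 to -0.41 across miRNAs. Nothing in the labels says that days are separate cultures, so that p-values measure the spread between these libraries. Single values were also tested by exact permutation within days (32 sign patterns). Fits were tested on simulated data. The alternatives were no replicate block, all 11 libraries without the block, each pair left out, each clone alone, 2 other scalings, pseudocounts of 0.1 and 10, untransformed values, untransformed values before the floor, only miRNAs with a mean of 100 or more, and limma with trend.

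The members, lists and tests were chosen with earlier results of these data known. All 8 members are named, together with members of lists. Also named are the 3 miRNAs at the smallest distance from miR-130a-3p and from miR-130b-5p among those without a value at the floor. Listed names missing from the table were looked for with the suffix a (miR-126 as miR-126a), a step added after the data were seen. Sequences are from RefSeq (GRCm38.p6) and host genes from the GENCODE M21 annotation of GRCm38. Tables were made with Python 3.11.15, pandas 2.3.3 and numpy 2.4.6 and plots with matplotlib 3.10.9.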

Additional observations from a re-analysis of the deposited data

Results flagged for a closer look

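In 24 groups of 5 libraries (the 8 levels and the 4 arm shares in each genotype), a library farther from the rest than expected at the 95% level was looked for, which chance gives in about 1 group of 20. miR-130b-3p stood apart on day 3, with 944.9 in the Trim-/- and 542.9 in the Trimfl/fl library, which is 1 difference seen from both sides because same-day values add up to a constant. The 5p share of miR-301b was 63.8% in the Trim-/- library of day 4, below the other Trim-/- libraries, which lay between 91.8% and 98.6%.

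The change between genotypes went down in every clone 1 pair and up in every clone E3 pair for 3 results. The clone E3 change exceeded that of clone 1 by 1.495 (log2) for miR-130a-3p (limma, unadjusted p = 0.0690), by 2.24 for miR-301a-3p (unadjusted p = 0.0296, adjusted p = 0.627) and by 2.13 for the 3p to 5p ratio of miR-130a (unadjusted p = 0.0733).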

How the results depend on the processing

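With 5 pairs and an unknown depth, the intervals of the members reach over 1 log2 unit for most, so that changes of that size could be missed. Of 134 alternative values of the members' log2 fold changes, 120 kept their sign and their side of the thresholds, as did 32 of 44 for the arm ratios. All 72 levels and shares moved by less than 1 SD. These were means with 1 library left out or with the day 2 library added, which cannot move by 1 SD, so this outcome was fixed in advance.

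Clone E3 alone turned the sign of miR-130a-3p (0.46), miR-130b-3p (0.12), miR-301a-3p (0.24), miR-301b-3p (0.38), miR-301b-5p (-1.10) and the arm ratios of miR-130a (1.13) and miR-301b (1.49). Division by library totals gave -0.0799 for miR-301a-5p and -0.24 for miR-301b-5p. Leaving out 1 pair gave -0.39 to 0.66 for miR-301b-5p, below 0 without day 3 (-0.02), 5 (-0.39) or 6 (-0.10), and -0.63 (without day 3) to 0.35 (without day 5) for the arm ratio of miR-130a. The thresholds of the study were passed by miR-301a-3p in clone 1 alone (-1.998) and by miR-301b-3p without day 4 (-1.61). miR-301a-3p also passed them without the replicate block (-1.10) and without the block and with all 11 libraries (-1.11). Both of these fits treat the libraries of a pair as independent, although their values add up to a constant, which makes p too small. The causes of the other changes were not tested.

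The 32 miRNAs past the thresholds became 101 without the replicate block, 116 when the day 2 library was added as well, 59 in clone 1 alone, 50 after division by totals and 15 with a mean of at least 100, and 16 (without day 1) to 67 (without day 4) when 1 pair was left out, with 19 without day 6. The 0 with an adjusted p under 0.05 became 9 without the replicate block, 36 when the day 2 library was added as well, and 1 in clone 1 alone, on untransformed values and on untransformed values before the floor. The 3 hairpins with an unadjusted p under 0.05 for the arm ratio became 18 without the replicate block, 24 when the day 2 library was added as well, 13 in clone 1 and 10 in clone E3. With 1 pair left out they were 0 (without day 1) to 11 (without day 4), with 1 without day 5. The fits without the replicate block treat the libraries of a pair as independent, although their values add up to a constant. The day 2 library adds only a mean, so that these p-values are too small and the counts too high.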
